A study of Rattus norvegicus with 16 samples.

Results

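Curcumin, the yellow polyphenol of turmeric, was given to aged rats in their chow for 6 weeks, and gene expression in the hippocampus was compared with that of rats kept on chow without curcumin for the same 6 weeks. All rats were male, of the Sprague-Dawley strain and 15 months old when the experiment began, so they were older when tissue was taken. The comparison held 4 of the 16 arrays of the series, 2 of curcumin-treated and 2 of control hippocampus, chosen by the labelled tissue, treatment and time point. Each group had 6 rats, and the hippocampal tissue of 3 rats was pooled for RNA, so an array stands for a pool and not for an animal. The labels call the arrays of a group biological replicates, whereas the design text also describes duplicate arrays of an RNA sample. The p-values below therefore measure the spread between these arrays, which may be technical in part. Each array held log2 levels of 27342 transcript clusters, which are sets of probes for a transcript, and 14325 genes could be followed through a cluster that carries exactly 1 gene symbol.

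The hippocampus passes signals from the granule cells of the dentate gyrus to the pyramidal cells of CA3 and CA1 and on to the subiculum, a circuit needed to form new memories. It is also one of the places where the adult brain makes new neurons, and that production falls with age. Curcumin is known to inhibit NF-kB, a transcription factor of inflammation, and p300, a histone acetyltransferase, and to activate Nrf2, the regulator of antioxidant genes. The lateral ventricle lies against the hippocampus, so dissected tissue can carry ciliated ependymal cells of the ventricle wall and choroid plexus, the epithelium that secretes cerebrospinal fluid.

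The upstream DNA of 4 genes is shown first, because neurotensin (Nts) and the secreted synaptic protein cerebellin 4 (Cbln4) had the largest differences among neuronal genes, and the globins Hbb-b1 and Hba-a3 stand for the hemoglobins, which made up 6 of the 17 clusters past the 1.5-fold rule on the lower side. Each sequence is the 250 bases before the gene start in RefSeq (GRCr8), 5′ to 3′. In the globin windows capitals mark TATAAA, the motif CCAAT (reverse ATTGG) and the motif CACCC (reverse GGGTG). In the Nts window they mark TGACTCA (reverse TGAGTCA). The Cbln4 window was searched for TATAAA as well as for CCAAT.
Nts, chr7:39460889-39461138, minus strand: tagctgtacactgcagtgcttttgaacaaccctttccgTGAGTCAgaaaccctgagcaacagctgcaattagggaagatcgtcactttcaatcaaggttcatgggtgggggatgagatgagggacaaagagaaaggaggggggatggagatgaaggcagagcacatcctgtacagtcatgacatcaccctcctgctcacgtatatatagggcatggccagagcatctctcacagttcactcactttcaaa
Cbln4, chr3:181225601-181225850, minus strand: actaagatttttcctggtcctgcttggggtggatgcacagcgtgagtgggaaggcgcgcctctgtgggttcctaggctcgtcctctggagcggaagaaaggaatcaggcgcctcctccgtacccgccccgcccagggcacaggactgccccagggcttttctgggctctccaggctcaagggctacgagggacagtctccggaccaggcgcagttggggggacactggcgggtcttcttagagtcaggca
Hbb-b1, chr1:167643521-167643770, minus strand: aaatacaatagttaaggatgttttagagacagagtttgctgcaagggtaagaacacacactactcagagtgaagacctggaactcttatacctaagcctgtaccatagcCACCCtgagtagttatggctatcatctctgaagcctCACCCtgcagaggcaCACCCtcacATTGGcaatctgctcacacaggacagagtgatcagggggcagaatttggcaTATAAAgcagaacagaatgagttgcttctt
Hba-a3, chr10:15816944-15817193, minus strand: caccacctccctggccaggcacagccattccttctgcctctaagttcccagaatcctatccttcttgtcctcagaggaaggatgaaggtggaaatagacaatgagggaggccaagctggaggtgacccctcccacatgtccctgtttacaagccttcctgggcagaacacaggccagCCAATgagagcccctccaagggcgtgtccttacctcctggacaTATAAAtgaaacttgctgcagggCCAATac
The Nts window held TGACTCA, the AP-1 element, at -212 to -206 from the gene start, as did 3.98% of all 27457 windows of this length. The Cbln4 window held neither motif. Hbb-b1 and Hba-a3 held TATAAA at -30 to -25, a motif found in 13.1% of windows, and both held CCAAT, found in 34.3%. The motif CACCC, found in 49.4% of windows, stood at -141, -105 and -90 in Hbb-b1, and Hba-a3 held none. The window of the beta globin Hbb, not shown, held CCAAT and CACCC but no TATAAA. These matches describe letters and show no binding.

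No transcript cluster differed between curcumin and control hippocampus after 6 weeks by limma, a linear model fitted to all 16 arrays with a mean for each of 8 groups. At an adjusted p under 0.05 limma called 0 of 27342 clusters (0%), and the smallest adjusted p was 0.9999. At an unadjusted p under 0.05 there were 555 clusters, or 2.03%, of which 319 (1.17%) were higher and 236 (0.863%) lower with curcumin. The share of 2.03% was below the 5% expected at random, so the shared spread made this test conservative here. Alternative limma fits called 0 clusters as long as all 4 arrays were kept, with 352 to 1793 at an unadjusted p under 0.05. The count of 1793 (6.56%) came with array weights, where the smallest adjusted p by limma was 0.168. When curcumin replicate 1 was dropped limma called 2 clusters, and when any other of the 4 arrays was dropped it called 0. The 95% interval of the median cluster spanned 0.21 on the log2 scale to either side, or 1.16-fold. In 95.9% of clusters the whole interval lay within 1.5-fold of no difference. These intervals rest on the spread between arrays of pools, which may be technical in part. They therefore do not bound the difference between curcumin-treated and control rats.

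The study's methods select genes by fold alone, with no test, from a ratio of 1.5 upwards or of 0.66 downwards. By this rule 33 clusters, or 0.121%, differed, 16 of them higher (0.0585%) and 17 lower (0.0622%). For comparison, the 2 curcumin arrays differed from each other by 1.5-fold or more at 59 clusters and the 2 control arrays at 100. The count of 33 became 34 or 97 when curcumin replicate 1 or 2 was dropped, and 66 or 95 when control replicate 1 or 2 was. Among the 33 clusters, 9 carried exactly 1 symbol, or 0.0628% of named genes, 3 carried several and 21 carried none. Neurotensin (Nts) was the only named gene on the higher side. The lower side held Ttr, Cbln4, Hbb-b1, Alox15, Clic6, Htra4, Hbb and Hba-a3. Both arrays of a group lay beyond both arrays of the other group at 28 of the 33 clusters, an ordering that the whole array showed at 35.0% of clusters (17.3% higher and 17.7% lower). With 2 arrays against 2, a two-sided exact permutation test cannot give a p below 0.333.

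**Figure D1:**
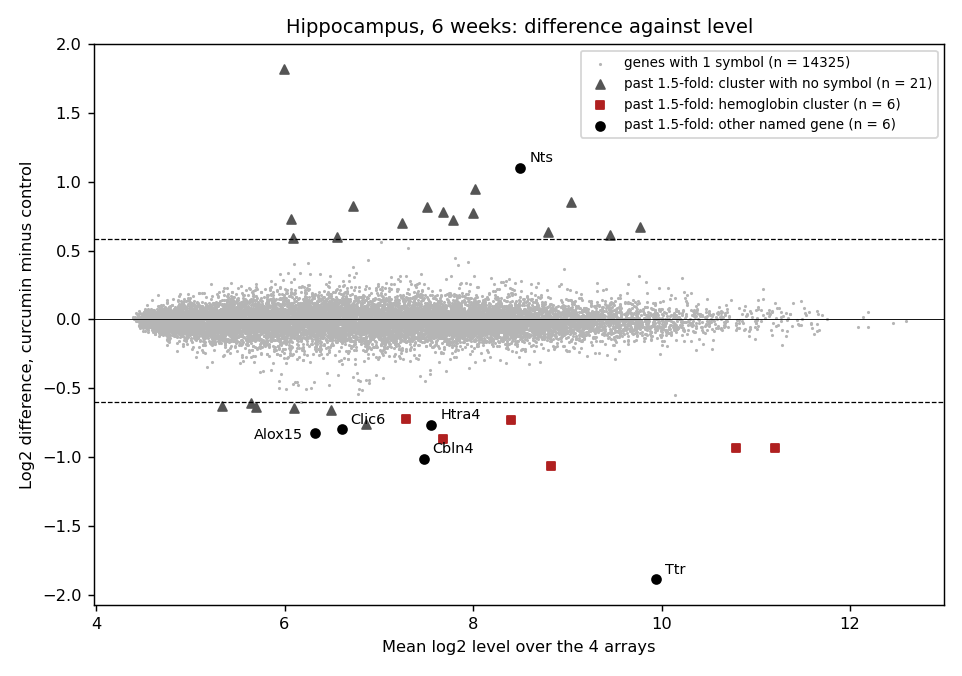
Mean log2 level over the 4 hippocampal arrays (horizontal axis) against the log2 difference, curcumin minus control (vertical axis). Grey points are the 14325 named genes and the larger symbols the 33 clusters past the dashed lines at 1.5-fold and 0.66-fold: 21 triangles with no symbol, 6 red squares for hemoglobin clusters and 6 other labelled genes, of which Nts alone lies above the upper line.

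The labelled tissue was checked against markers of the hippocampal fields. Prox1, the transcription factor of dentate granule cells, read 7.75 and 8.07 on the curcumin arrays and 7.91 and 8.06 on the control arrays, while its means in curcumin and control cortex at 6 weeks were 6.35 and 6.59. C1ql2, a synaptic protein secreted by granule cells, read 7.86 to 8.09 in hippocampus and had means of 6.30 and 6.52 in cortex. The CA3 marker Iyd, in contrast, lay at 5.67 to 5.76 on the 4 hippocampal arrays and at similar means in cortex (5.69 and 5.76). Drd1, the dopamine receptor of striatal neurons, was lower in hippocampus (6.35 to 6.56) than in cortex (means 7.32 and 7.81).

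The 4 arrays carried unequal levels of choroid plexus transcripts. Transthyretin (Ttr), the main secreted protein of the choroid plexus, read 6.04 and 11.96 on the curcumin arrays and 9.59 and 12.19 on the control arrays. Clic6, an intracellular chloride channel protein of this epithelium, read 4.90 and 7.52 with curcumin and 5.58 and 8.42 in controls. In both genes replicate 2 was high in either group and the groups overlapped. Of 26 measured choroid plexus genes, 24 were higher in replicate 2 than in replicate 1 in both groups, with median log2 gaps of 1.003 in the curcumin group and 1.35 in the control group. The mean log2 level of the list was 5.85 and 7.17 with curcumin and 6.20 and 7.54 in controls, and between 5.81 and 6.02 on the other 12 arrays of the series.

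Between the groups, 24 of the 26 choroid genes were lower with curcumin and 2 higher, with a median log2 difference of -0.38 beside -0.01 over all named genes. The arrays of the 2 groups did not overlap for 1 of the 26, beside 33.8% of named genes. The differences of Ttr (-1.89, SE 1.46, 95% interval -5.09 to 1.31) and Clic6 (-0.80, SE 0.82) were smaller than the gap between the arrays of one group. Which array was left out set the sign of the list: its median was 0.21 when curcumin replicate 1 was dropped and -0.88 when curcumin replicate 2 was. Dropping control replicate 1 gave -1.08 and dropping control replicate 2 gave 0.30. For many of the lists that follow, medians are therefore also given between arrays of the same number, 1 array against 1 and with no test. In these pairs the choroid median was -0.26 for the arrays numbered 1 and -0.50 for those numbered 2.

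**Figure D2:**
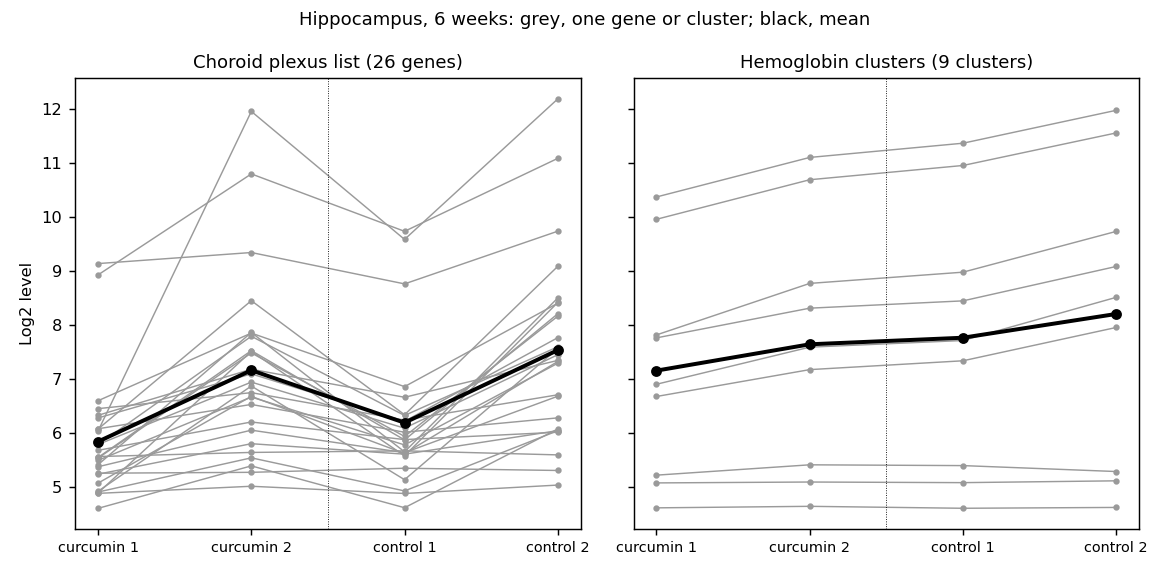
Log2 level (vertical axis) of 26 choroid plexus genes and of 9 hemoglobin clusters on curcumin replicates 1 and 2 and control replicates 1 and 2 (horizontal axis). A grey line joins the values of 1 gene or cluster and the black line is their mean: choroid genes are high on replicate 2 of both groups, whereas the 6 adult hemoglobin clusters are lower on both curcumin arrays than on both control arrays.

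Transcripts of adult hemoglobin, the oxygen carrier of red blood cells, were lower on both curcumin arrays. All 6 clusters of adult alpha and beta globins were past the 1.5-fold rule, at log2 differences from -1.06 to -0.72, beside 0.0622% of all clusters on the lower side. In each the groups did not overlap, an ordering that 17.7% of all clusters showed on that side. Hbb-b1, a beta globin, read 6.91 and 7.59 with curcumin and 7.72 and 8.52 in controls, a log2 difference of -0.87 (SE 0.47, unadjusted p = 0.0905 by limma). Hbb, another beta globin, read 7.77 and 8.32 with curcumin and 8.45 and 9.09 in controls, a difference of -0.73 (SE 0.38, unadjusted p = 0.0821 by limma). In both genes curcumin replicate 1 was the lowest array and control replicate 2 the highest, and curcumin replicate 2 lay just below control replicate 1. Hba-a3, an alpha globin, read 6.68 and 7.18 with curcumin and 7.34 and 7.96 in controls, a difference of -0.72 (SE 0.32, unadjusted p = 0.0437 by limma). The same order of arrays held in the cluster annotated to both Hbb-bs and Hbb-b1 (difference -1.06) and in 2 clusters annotated to both Hba-a2 and Hba-a1 (-0.93 each). Globin genes are near-identical copies, so a probe can read more than 1 of them and the clusters are not independent.

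The embryonic and fetal globins Hbe1, Hbe2 and Hbg1 lay at differences of -0.01, 0.01 and -0.03. Alas2, which starts heme synthesis in red cell precursors, differed by -0.27 (SE 0.23) with overlapping arrays. The median of the 6 adult clusters stayed between -1.25 and -0.54 with any 1 array left out. It was -0.90 between the arrays numbered 1 and -0.87 between those numbered 2, and all 6 were lower in each pair. The choroid list was lower with curcumin in the same pairs, at -0.26 and -0.50, and its part in the hemoglobin values was not tested. In bulk tissue fewer cells of a type and less RNA per cell cannot be told apart, and the part of residual blood in these values was not tested. The same clusters had log2 differences of -1.60 to -1.05 in cortex at 6 weeks and of -0.16 to 0.05 in hippocampus at 12 weeks. The difference between the cortical and the hippocampal effect was -0.55 for Hbb (unadjusted p = 0.332 by limma).

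Neurotensin was the neuronal gene with the largest positive difference. Nts encodes the precursor of a neuropeptide that modulates dopamine signalling and is made by neurons of the subiculum. It read 8.87 and 9.24 on the curcumin arrays and 8.20 and 7.70 on the control arrays. Both curcumin arrays were above both control arrays. The log2 difference was 1.10 (SE 0.48, 95% interval 0.04 to 2.16, unadjusted p = 0.0427, adjusted p = 0.9999 by limma), or 2.15-fold, and it ranged from 0.86 to 1.35 with any 1 array left out. The study tabulated Nts and chose it for RT-qPCR from these arrays, so its place here is no independent evidence.

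Cerebellins are secreted proteins that link presynaptic neurexins to postsynaptic receptors, and 2 of them were lower with curcumin without passing the test. Cbln4 read 7.02 and 6.92 with curcumin and 8.22 and 7.74 in controls, a log2 difference of -1.01 (SE 0.58, 95% interval -2.28 to 0.26, unadjusted p = 0.108 by limma). Cbln1 read 6.60 and 6.74 with curcumin and 7.35 and 6.87 in controls, a difference of -0.44 (SE 0.33). The groups did not overlap in either gene, and control replicate 1 was the highest array in both. Cbln2 and Cbln3 differed by 0.10 (SE 0.30) and -0.04 (SE 0.14). Of the 21 measured cerebellins and synapse organizers 12 were higher and 9 lower, with a median of 0.01. Cbln4 was also the lowest gene of a thalamus and habenula list, tissue that a dissection could hold. The highest gene of that list was the glutamate transporter Slc17a6 (0.43). Of the 15 measured genes of the list 5 were higher and 10 lower, with a median of -0.12. The mean log2 level of that list was 6.44 and 6.40 with curcumin and 6.65 and 6.47 in controls, again with control replicate 1 highest. The part of neighbouring tissue in the cerebellin values was not tested.

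Other genes that the study tabulated for this comparison lay on both sides. Htra4, a secreted serine protease, read 6.99 and 7.36 with curcumin and 8.12 and 7.76 in controls, a difference of -0.76 (SE 0.34, unadjusted p = 0.0470 by limma). Met, the receptor of hepatocyte growth factor, read 7.76 and 7.36 with curcumin and 6.81 and 7.28 in controls, a difference of 0.52 (SE 0.26). The groups were apart in both genes, though in Met curcumin replicate 2 and control replicate 2 nearly met. Aurkb, the kinase of chromosome segregation, read 5.77 and 5.75 with curcumin and 6.64 and 5.68 in controls, and Prc1, which bundles spindle microtubules, read 5.60 and 5.50 with curcumin and 6.18 and 5.46 in controls. In both the groups overlapped and only control replicate 1 stood high. Syt9, a calcium sensor of vesicle release, differed by 0.06 (SE 0.25). Among the 13 measured genes so tabulated, 4 were higher and 9 lower, with a median of -0.27. In the deposited values 1 of the 13 passed the 1.5-fold rule on the higher side (Nts) and 2 on the lower (Cbln4 and Htra4). The others did not reach the fold by which the study selects genes, and the cause was not tested. Between the arrays numbered 1 the median was -0.58 and between those numbered 2 it was -0.01. Of the 12 genes chosen for RT-qPCR at 6 weeks, 6 were higher and 6 lower, with a median of 0.02. Tabulated genes not yet described were Slc38a4 (0.17), Or1f34 (-0.11), Bbox1 (-0.16), Ak7 (-0.31) and the ciliary gene Dnah12 (-0.51), tabulated as Bm259. Those for RT-qPCR were Gpr22 (0.21), Chrna5 (0.13), Trh (0.08), Sv2c (0.06), Neurod6 (-0.02), Neurod1 (-0.03), S1pr5 (-0.11) and Sparc (-0.15). The tabulated genes were picked by the study on these arrays. The RT-qPCR genes were chosen from its array data mainly for their documented functions. The study measured them on RNA from the remaining tissue of each rat and reported trends similar to the arrays for all genes so measured. Its primer list gives no duration, so the assignment of the 12 genes to 6 weeks is not stated there.

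**Figure D3:**
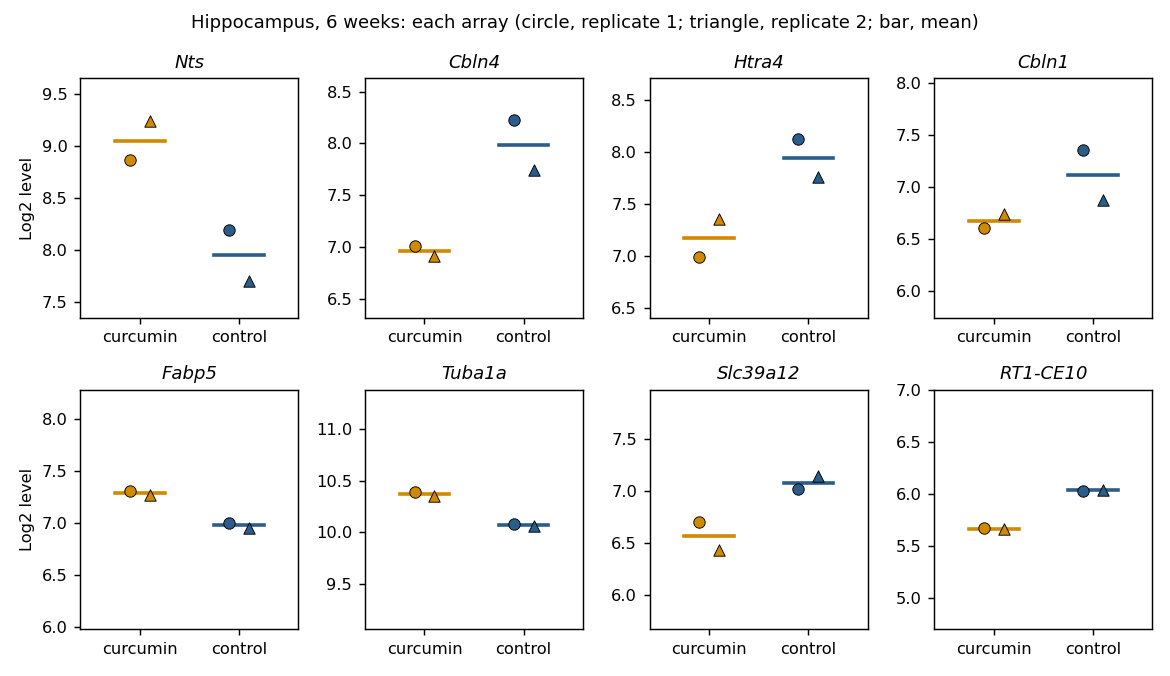
Log2 level (vertical axis) of Nts, Cbln4, Htra4, Cbln1, Fabp5, Tuba1a, Slc39a12 and RT1-CE10 on the curcumin and control arrays; circles are replicate 1, triangles replicate 2 and bars the group mean. In each of the 8 genes the 2 groups do not overlap, with differences from -1.01 in Cbln4 to 1.10 in Nts. The genes were picked on these same arrays, and 33.8% of all named genes show no overlap.

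The genes with the largest moderated t had small, tight differences. Fabp5, a fatty acid carrier of brain cells, read 7.30 and 7.27 with curcumin and 6.998 and 6.95 in controls, a log2 difference of 0.31 (SE 0.06, adjusted p = 0.9999 by limma). Tuba1a, the alpha tubulin of growing neurites, read 10.39 and 10.35 with curcumin and 10.08 and 10.06 in controls, a difference of 0.30 (SE 0.08). Each was clear of the control arrays by several times the gap within a group. On the lower side RT1-CE10, a class I histocompatibility gene, read 5.68 and 5.66 with curcumin and 6.04 and 6.05 in controls, a difference of -0.37 (SE 0.07). Slc39a12, a zinc transporter, read 6.70 and 6.43 with curcumin and 7.02 and 7.15 in controls, a difference of -0.52 (SE 0.11). Camk2n2, an inhibitor of the kinase CaMKII, read 6.23 and 6.27 with curcumin and 6.68 and 6.60 in controls, a difference of -0.39 (SE 0.09). None of these passed the adjustment over all clusters. Histocompatibility genes are a multigene family, so the value of RT1-CE10 may include signal of related copies.

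Further genes of these ranks were Dennd2b (0.42), Arhgap12 (0.37), Tox (0.26), Aspg (0.26), Ccr7 (0.24), Eva1a (0.23), Calm2 (0.22) and Tmem141 (0.19) on the higher side. The lower side held C8h11orf52 (-0.32), Or56a3b (-0.31), Trpm1 (-0.30), Ncoa5 (-0.275), Lhx1 (-0.27), Slc7a7 (-0.27) and Cox8c (-0.24). Calm2 encodes the calcium sensor calmodulin, Ccr7 a chemokine receptor of lymphocytes and Tox a nuclear protein of T cells and neural progenitors. Among the largest differences with groups apart were also Gtf2a2, a subunit of the general transcription factor TFIIA, which read 7.36 and 7.24 with curcumin and 6.65 and 6.82 in controls (0.56, SE 0.20), and Klk8, the protease neuropsin of hippocampal synaptic plasticity, which read 6.90 and 6.94 with curcumin and 6.49 and 6.58 in controls (0.38, SE 0.14). Tnnt2, a troponin T gene, differed by 0.41 (SE 0.20), the chloride channel gene Cftr by 0.40 (SE 0.18) and Adgrl2, an adhesion receptor of synapses, by 0.40 (SE 0.26). The vesicular glutamate transporter Slc17a6 differed by 0.43 with an SE of 0.49, larger than the difference. The slow troponin T gene Tnnt1 differed by -0.51 (SE 0.33, 95% interval -1.23 to 0.22).

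Genes of motile cilia, the beating hairs of the ependyma, leaned to lower values with curcumin. Of 43 measured genes 42 were lower and 1 was higher, with a median log2 difference of -0.14, beside -0.01 over all named genes, of which 55.6% were lower and 44.4% higher. For 22 of the 43 (51.2%) both curcumin arrays were below both control arrays, an ordering that 20.0% of named genes showed. At an unadjusted p under 0.05 there were 8, all lower, against 118 of 14325 named genes on that side. None of the 43 passed limma, and cilium genes of one cell type vary together, so the 43 are not independent. The mean log2 level of the list was 5.76 and 5.87 with curcumin and 6.03 and 5.93 in controls, an order of arrays unlike that of the choroid plexus list, with control replicate 1 highest.

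Dnah12, a heavy chain of axonemal dynein, read 5.65 and 5.87 with curcumin and 6.53 and 6.00 in controls, a difference of -0.51 (SE 0.23, unadjusted p = 0.0491 by limma). The study tabulated this gene from these same arrays, so its value is no independent evidence. Hydin, a protein of the central pair of the axoneme, read 5.89 and 6.18 with curcumin and 6.70 and 6.37 in controls, a difference of -0.50 (SE 0.21). Mns1, needed to assemble cilia and sperm tails, read 5.58 and 5.81 with curcumin and 6.16 and 6.22 in controls, a difference of -0.49 (SE 0.17). In the first 2 genes control replicate 1 was the highest array, and in Mns1 both control arrays were high. Tekt1, a filament protein inside ciliary microtubules, differed by -0.23 (SE 0.07) and Cfap52 by -0.28 (SE 0.09).

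The size of the ciliary difference depended on the arrays. Between the arrays numbered 1, 41 of the 43 genes were lower, with a median of -0.25, and between those numbered 2, 30 were lower, with a median of -0.04. With any 1 array left out, 34 to 42 genes were lower and the median lay between -0.21 and -0.08. The median of the same list was -0.04 in hippocampus at 12 weeks and -0.11 in cortex at 6 weeks, each with controls of its own. How far unequal amounts of ventricle wall in the pools entered these values was not tested.

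**Figure D4:**
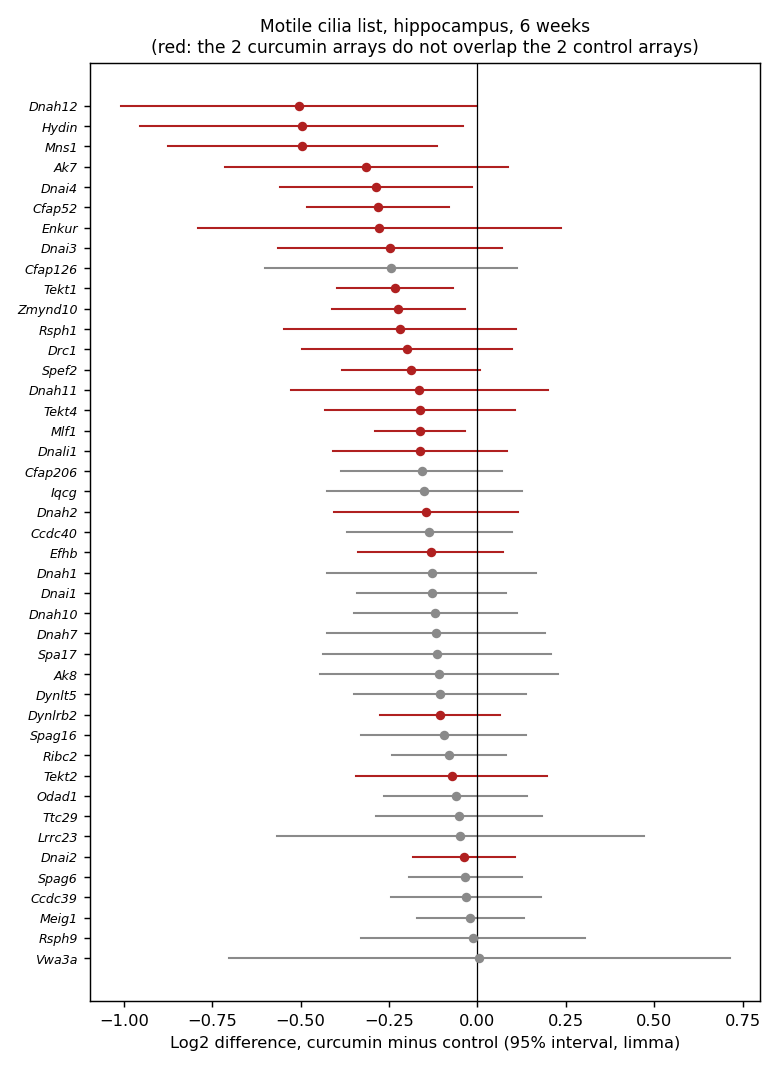
Log2 difference, curcumin minus control (horizontal axis), of 43 motile cilia genes with 95% limma intervals. Red marks the 22 genes whose curcumin arrays are both below the control arrays: 42 of 43 points lie left of 0, and most intervals include 0.

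The upstream window of Hydin is shown because the RFX factors, which regulate ciliary genes, bind a site that contains GTTGCC. Capitals mark this motif (reverse GGCAAC), here at -6 to -1.
Hydin, chr19:55146216-55146465, plus strand: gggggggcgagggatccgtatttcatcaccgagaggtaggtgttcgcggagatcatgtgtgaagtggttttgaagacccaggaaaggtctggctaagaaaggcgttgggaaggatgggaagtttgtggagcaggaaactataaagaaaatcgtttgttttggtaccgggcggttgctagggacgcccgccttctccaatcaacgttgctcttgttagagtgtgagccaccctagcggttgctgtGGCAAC
The motif was present in 11 of the 37 cilia genes with a window (29.7%), counted for all of them whatever their difference, and in 9.90% of all 27457 windows.

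The medians of the hippocampal field lists differed in sign. No contrast between fields was tested, and none of the markers passed limma. Of 7 CA2 genes 2 were higher and 5 lower, with a median of -0.01. Of the 8 dentate granule cell genes 4 were higher and 4 lower, with a median of -0.01. Of 8 CA3 genes 7 were lower, with a median of -0.20, and in 6 the curcumin arrays were both below the controls, beside 20.0% of named genes. Bok, a regulator of apoptosis enriched in CA3, read 7.65 and 7.67 with curcumin and 7.90 and 7.90 in controls, a difference of -0.24 (SE 0.08), and the neuronal RNA-binding protein gene Elavl2 differed by -0.24 (SE 0.15). The lowest gene of the CA3 list was Prkcd (-0.29, SE 0.15), which also marks thalamus, so the list is not specific to CA3. The CA3 median lay between -0.20 and -0.15 with any 1 array left out, and it was -0.14 and -0.19 between the arrays numbered 1 and 2. Of 8 CA1 genes 7 were higher, with a median of 0.10, among them Ccn3 (0.27, SE 0.24) and Pou3f1 (0.25, SE 0.18). Wfs1, the endoplasmic reticulum protein that marks CA1, differed by 0.09 (SE 0.22). The CA1 median was 0.19 and 0.10 in the same pairs. The subiculum and entorhinal list, which holds Nts, Cbln4 and Met, had 3 of 11 genes higher and 8 lower, with a median of -0.15, and of -0.16 and -0.13 in the pairs.

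RNA levels of genes in the pathways that curcumin is known for showed median differences close to 0. The activity of the NF-kB, Nrf2 and p300 proteins was not measured here, and RNA levels do not show it. Of 16 genes of NF-kB and inflammation 4 were higher and 12 lower, with a median of -0.04. Il1b, the cytokine interleukin 1 beta, read 5.48 and 5.57 with curcumin and 5.37 and 5.36 in controls, a difference of 0.16 (SE 0.07), and Rela, the p65 subunit of NF-kB, differed by -0.11 (SE 0.07). Of 20 genes of the Nrf2 pathway 7 were higher and 13 lower, with a median of -0.02. Nfe2l2, which encodes Nrf2, differed by 0.10 (SE 0.16), its inhibitor Keap1 by -0.17 (SE 0.10) and the quinone reductase Nqo1 by -0.10 (SE 0.18). Of 19 histone acetyltransferases and deacetylases 5 were higher and 14 lower, with a median of -0.03. Ep300, which encodes p300, differed by -0.03 (95% interval -0.25 to 0.19), so that a 1.5-fold difference lay outside its interval. Between the arrays numbered 1 and 2 the medians were -0.07 and -0.01 for NF-kB, -0.04 and -0.05 for Nrf2, and -0.01 and -0.02 for the histone enzymes.

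Growth and neurogenesis genes were similar between the groups. Bdnf, the neurotrophin of synaptic plasticity, read 6.59 and 6.78 with curcumin and 6.74 and 6.74 in controls, a difference of -0.05 (95% interval -0.29 to 0.18). Its receptor Ntrk2 differed by -0.01 (95% interval -0.14 to 0.13). Of 14 genes of neurotrophin signalling 4 were higher and 10 lower, with a median of -0.01. Of 18 genes of neural progenitors and newborn neurons 6 were higher and 12 lower, with a median of -0.03. Sox2, the transcription factor of neural stem cells, differed by -0.13 (SE 0.12). Of 27 cell division genes 12 were higher and 15 lower, with a median of -0.01. In the pairs of arrays numbered 1 and 2 the medians were 0.02 and -0.04 for neurotrophin signalling, -0.06 and -0.04 for progenitors, and -0.02 and 0.01 for cell division. The number of arrays limits the precision of these values.

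Synaptic genes were close to 0 in the median. Of 23 genes of synaptic vesicle release 7 were higher and 16 lower, with a median of -0.06. Vamp2, the vesicle SNARE synaptobrevin, read 8.98 and 9.02 with curcumin and 9.13 and 9.22 in controls, a difference of -0.17 (SE 0.06). Snap25, its partner on the plasma membrane, differed by -0.01 (SE 0.09). Of 16 synaptotagmins and SV2 proteins 9 were higher and 7 lower (median 0.02), and of 17 glutamate receptors and scaffolds behind the synapse 10 were higher and 7 lower (median 0.01). Among 22 neuropeptide precursors 11 were higher and 11 lower, with a median of 0.00, Nts at one end and Chgb, a protein of dense-core vesicles, at the other (-0.25, SE 0.08). Of 15 immediate early genes, which neuronal activity induces, 5 were higher and 10 lower, with a median of -0.10. Npas4 read 6.46 and 6.86 with curcumin and 7.29 and 6.96 in controls, a difference of -0.46 (SE 0.28), while Fos differed by 0.14 (SE 0.18). Several of these medians took opposite signs in the pairs of arrays numbered 1 and 2: vesicle release was at 0.03 and -0.07, the synaptotagmin list at 0.07 and -0.09, the receptor and scaffold list at 0.10 and -0.06, and neuropeptides at 0.04 and -0.03. Immediate early genes were at -0.17 and -0.02.

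Glial and vascular genes gave medians near 0 as well. Of 15 astrocyte genes 7 were higher and 8 lower (median -0.01), and Gfap, the intermediate filament of astrocytes, differed by 0.07 (SE 0.24). Of 17 microglial genes 7 were higher and 10 lower (median -0.07). Trem2, a lipid receptor of microglia, read 6.19 and 6.23 with curcumin and 5.83 and 6.03 in controls, a difference of 0.28 (SE 0.10). Between the arrays numbered 1 and 2 the microglial median was 0.07 and -0.13, and the astrocyte median -0.05 and 0.01. Of 14 myelin genes 7 were higher and 7 lower, with a median of 0.01 and no gene with groups apart, beside 33.8% of named genes. That median hid a spread between the controls, since it was -0.23 between the arrays numbered 1 and 0.26 between those numbered 2. Of 19 leptomeningeal and collagen genes 15 were higher, with a median of 0.07 (0.13 between the arrays numbered 1 and 0.00 between those numbered 2), and of 13 endothelial genes 6 were higher and 7 lower (median 0.00). Among 11 heat shock chaperones 9 were lower (median -0.04), with Hspa5, the chaperone of the endoplasmic reticulum, at -0.22 (SE 0.09). Respiratory chain (28 genes, median 0.00) and ribosomal protein genes (27 genes, median -0.03) were close to 0. No member of any list passed limma.

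**Figure D5:**
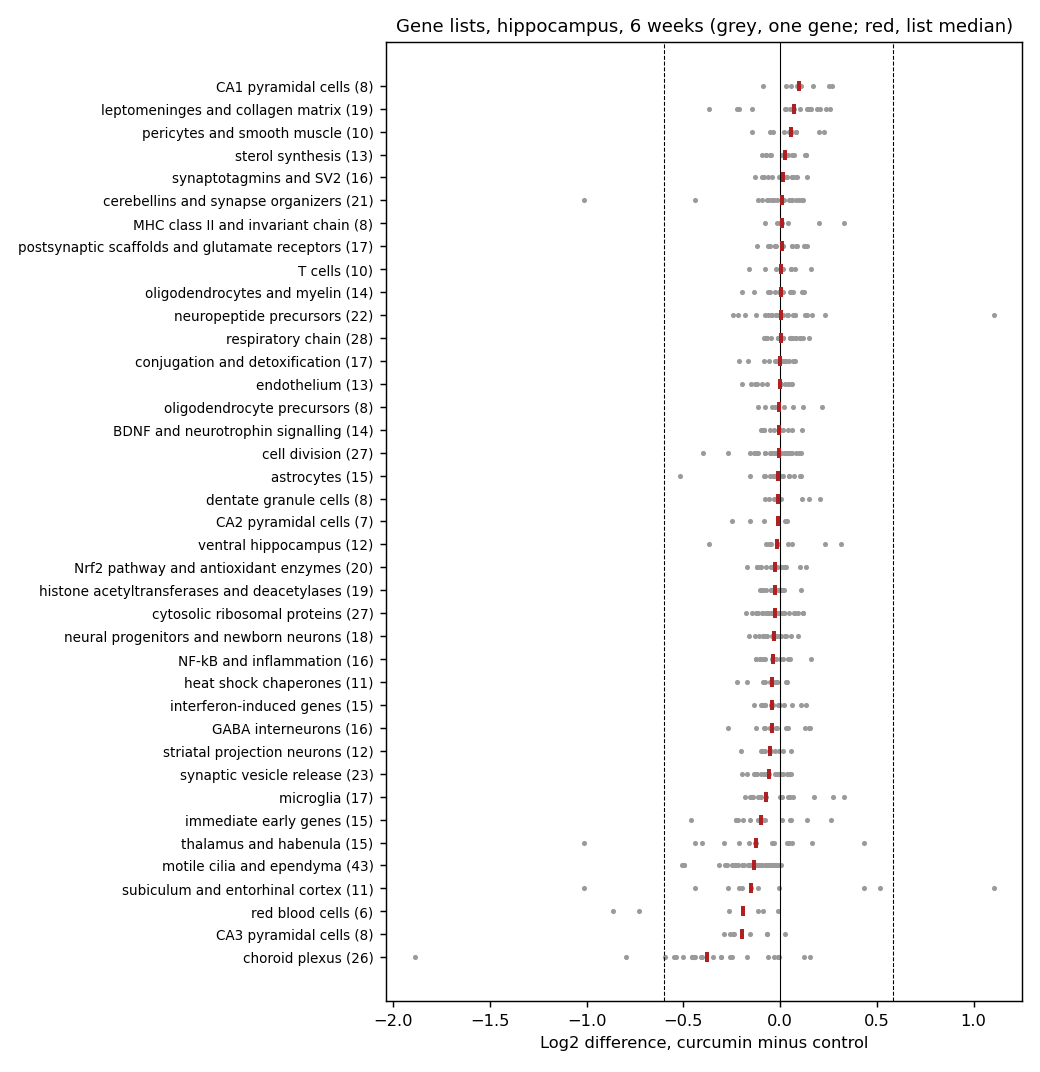
Log2 difference, curcumin minus control, of the members of 39 gene lists (grey points, 1 per gene) with the median of each list in red; dashed lines mark 1.5-fold and 0.66-fold. The medians lie between -0.38 for choroid plexus and 0.10 for CA1 pyramidal cells, and single genes past the dashed lines belong to few lists.

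Of the 33 clusters past the 1.5-fold rule, 21 had no symbol in the annotation and stand without a gene name here. The 15 on the higher side had log2 differences from 0.59 to 1.82. Of these, 13 had an unadjusted p under 0.05 by limma, beside 1.17% of all clusters on that side. The clusters were chosen for a large difference on the same arrays, so such counts are no separate support. Cluster 10886988 read 5.05 and 8.76 with curcumin and 5.06 and 5.11 in controls, so its difference of 1.82 came from curcumin replicate 2 alone. Cluster 10887010 read 8.21 and 8.77 with curcumin and 7.38 and 7.71 in controls (0.95), with the groups apart. The 6 on the lower side ranged from -0.76 to -0.61, and 4 had an unadjusted p under 0.05 by limma, beside 0.863% of all clusters. Among them, cluster 10807923 read 6.39 and 6.58 with curcumin and 7.33 and 7.15 in controls. Of the 21 clusters, 9 on the higher and 5 on the lower side had a number within 100 of another of them.

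Whether the effect at 6 weeks differed from that at 12 weeks in the same tissue was tested in the same fit, over the 8 hippocampal arrays' groups. limma called 0 of 27342 clusters for this difference (0%), with 939 at an unadjusted p under 0.05 (3.43%) and a smallest adjusted p of 0.952, and 2 clusters when hippocampal curcumin replicate 1 was dropped. On its own the 12-week comparison had 1 call (0.00366%). Nts differed by 1.10 at 6 weeks and by 1.29 at 12 weeks, each against its own controls, and the difference of effects was 0.19 (SE 0.68). Htra4 was at -0.76 at 6 weeks and 0.65 at 12 weeks, a difference of 1.42 (SE 0.48, unadjusted p = 0.0137 by limma) that did not pass the adjustment. Cbln4 was at -1.01 and 0.07. The gene with the largest moderated t was Cd3e, the CD3 epsilon chain of T cells, at 0.16 after 6 and 1.01 after 12 weeks (adjusted p = 0.952 by limma). Fabp5, Tuba1a and RT1-CE10 were at -0.03, -0.05 and 0.07 after 12 weeks, and Slc39a12 was at -0.38. The other genes with the largest moderated t, none of which passed, had differences of effects of 0.57 (Rimbp2), 0.50 (Slc47a2), 0.45 (Rassf1) and 0.44 (RT1-CE10) on the higher side. On the lower side they were Npy2r (-1.35), Cimap1c (-0.78), Rpl22l1 (-0.71), Nrarp (-0.54) and Vdac2 (-0.41).

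The same question was asked of the cortex at 6 weeks. The difference of the cortical and the hippocampal effect had 0 calls by limma (0%), with 1498 clusters at an unadjusted p under 0.05 (5.48%) and a smallest adjusted p of 0.467. It had 140 calls when replicate 1 of the cortical controls was dropped, 2 for hippocampal and 1 for cortical curcumin replicate 1, while the cortical comparison alone had 29 calls (0.106%) and 1.25% of clusters past the 1.5-fold rule. Nts was at -1.02 in cortex, and the difference from hippocampus was -2.12 (SE 0.68, unadjusted p = 0.00969, adjusted p = 0.667 by limma). Among the genes with the largest moderated t, none of which passed, Slc17a7, a vesicular glutamate transporter, was at 0.06 in hippocampus and 0.81 in cortex, and Syn1, a synaptic vesicle protein, at -0.14 and 0.50. The adhesion gene Cadm3 was at -0.23 and 0.41. For Rap1gap2 and Abhd8 the differences of effects were 0.60 and 0.54. On the lower side they were -0.62 for Tp53inp1, -0.43 for Cdk5rap2, -0.41 for Lmnb1, -0.36 for H3f3a and -0.32 for Mavs. Lists of other cell types had cortical medians of -0.79 for myelin, -0.50 for striatal neurons, -0.48 for red blood cells and -0.32 for leptomeninges. The mean log2 level of the striatal list was 8.34 on cortical control replicate 1 and 6.70 to 7.38 on the other 3 cortical arrays of 6 weeks, and that of the leptomeningeal list was 7.98 on cortical control replicate 2 and 7.11 to 7.21 on the others. The part of these cell types in the cortical values was not tested. Slc39a12 was at -0.52 in hippocampus and -0.53 in cortex. Both tests of a difference use the same 4 hippocampal arrays of 6 weeks and are not independent of each other.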

How the data were processed

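Total RNA of hippocampus or cortex was labelled with biotin and hybridised to Affymetrix arrays. The authors deposited log2 values, made with RMA in Affymetrix Expression Console, with versions not given in the sources used here. No probe-level data were used, so background and array quality were not examined. The study names an exon array, while the cluster annotation is that of a gene array, and this was not settled. Of the clusters, 15097 carried 1 symbol, 323 several and 11922 none, and 15067 of those with 1 symbol were found in RefSeq by gene ID. The number of value columns not used was 0.

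Differences are curcumin minus control means of the log2 values. R 4.3.3 and limma 3.58.1 served for a fit of all 16 arrays (1 mean per group, moderated by eBayes at its defaults, with 8 residual and 3.12 prior degrees of freedom), with Benjamini-Hochberg adjustment over all clusters and a threshold of 0.05. Figures were made with Python 3.11.15 and matplotlib 3.10.9, and statmod 1.5.0 served the random block. The fit was tested on simulated data. Alternatives tried were quantile normalization, leaving out dim clusters, fits on fewer arrays, a variance trend, array weights, blocks, other thresholds and leaving out each array.

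The comparison, the 41 gene lists and the tests were chosen with earlier results of these data known. Of 764 genes listed 650 had a cluster. Genes to name were drawn from those the study tabulated or chose for RT-qPCR; the 10 genes per direction with the largest moderated t and the 10 with the largest difference whose arrays lie apart, leaving out symbols that start with LOC, RGD, Olr, Vom or Mir; for lists described, up to 4 members with the largest t and the first 3 as listed, not all of which are printed; and the 5 per direction with the largest t in each test of a difference. A gene with several clusters is represented by the cluster of the study's accession or else by the brightest. The clusters past the 1.5-fold rule, the globins and the marker genes were named as well, after their values were seen.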

Additional observations from a re-analysis of the deposited data

How the results depend on the processing

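The 1.5-fold count of 33 was 5 with a 2-fold rule and 9 over genes with exactly 1 symbol, and it ran from 34 to 97 with any 1 array left out (34 and 97 without curcumin replicates 1 and 2, 66 and 95 without control replicates 1 and 2). By limma the count of 0 was 555 with unadjusted p-values and 0 to 2 with any 1 array left out. The 2 calls came without curcumin replicate 1 and include cluster 10886988, which is high on the array that then stands alone for its group and is assumed to vary like the others. The count for 12 minus 6 weeks was 939 with unadjusted p-values and 0 to 2 with an array left out (2 without hippocampal curcumin replicate 1). That for cortex minus hippocampus was 1498 with unadjusted p-values and 0 to 140 with an array left out (140 without cortical control replicate 1, 1 without cortical curcumin replicate 1, 2 without hippocampal curcumin replicate 1). The cause was not tested. With the replicate number as a block there were 0 calls and 561 clusters at an unadjusted p under 0.05, and the block changed no call. Deviations of arrays of the same number correlated at 0.0404 between the curcumin and control groups over all clusters, and the labels do not say that a number marks a shared batch. Nevertheless 24 of 26 choroid plexus genes and 6 of 6 red blood cell genes were higher in replicate 2 in both groups.

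Of the 53 named genes followed over 13 settings, 10 changed sign in any setting, and 0 did so in a setting that kept all arrays. With an array left out the log2 differences ranged from -0.19 to 0.31 for Syt9, -0.26 to 0.0385 for Or1f34, -0.33 to 0.0126 for Bbox1, -0.22 to 0.56 for Slc38a4, -0.63 to 0.0939 for Prc1, -0.88 to 0.0835 for Aurkb, -0.30 to 0.0784 for S1pr5, -0.0607 to 0.0026 for Neurod1, -0.0159 to 0.14 for Sv2c and -0.0573 to 0.00856 for Neurod6. Of 39 lists 0 medians moved beyond the spread in a setting that kept all arrays and 29 did with an array left out. List values with an array left out and between arrays of the same number were chosen after seeing the data.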
